A study of Mus musculus with 6 samples.

Results

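The 10 genes described here are those of the growth hormone and insulin-like growth factor (IGF) axis of the liver: Ghr, Jak2, Stat5a, Stat5b, Socs2, Igf1, Igfals, Igfbp1, Igfbp2 and Bcl6. Their open chromatin was followed as ATAC-seq regions. A region was taken when the nearest protein-coding gene span to its midpoint, within 50 kb, belonged to 1 of these genes. This gave 150 of the 109853 regions of the series. The study used male mice with the genotype Ncor1/2 F/F, so both groups carried the floxed alleles. Ncor1 encodes the nuclear receptor corepressor NCOR1. Control mice received AAV-eGFP (3 libraries), and the knockout group, labelled dKO, received AAV-Cre (3 libraries). Liver was taken on day 5 after the adeno-associated virus at zeitgeber time 10. Hepatocyte nuclei were enriched by sorting on the transcription factor HNF4a, and the Omni-ATAC reaction was run on them. Neither the promoter that drives Cre, nor the age of the mice, nor the number of animals behind a library was given. The p-values therefore cover only the spread between libraries, part of which may be technical. Peak lists do not measure the loss of the floxed genes.

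Growth hormone binds its receptor GHR on hepatocytes, which activates the kinase JAK2 and, through it, the transcription factors STAT5A and STAT5B. STAT5 drives transcription of Igf1, the main source of circulating IGF1, of Igfals, whose product holds IGF1 in a stable complex in blood, and of Socs2, an inhibitor that limits the signal. BCL6 is a repressor that binds many of the same sites as STAT5 and is more abundant in male liver, where growth hormone arrives in pulses. IGFBP1 and IGFBP2 bind IGF1 in blood and rise in fasting.

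RefSeq promoter windows, running from 250 bases before to 50 after an annotated start, were at hand for 9 of the 10 genes, 16 windows in all (GRCm38.p6, the build the files use). They were searched on both strands for TTCNNNGAA, the palindrome bound by STAT5, for the same arms with 1 more base between them, the spacing bound by STAT6, for the glucocorticoid receptor palindrome, and for AGGTCA, the nuclear receptor hexamer. The STAT5 letters were found 6 times in 4 windows, at Bcl6 and Igfals. They are in 8.34% of the 32619 promoter windows of the table. The hexamer was found in 6 windows, at Igf1, Igfals, Stat5a and Stat5b, and is in 16.2% of all windows. The wider spacing (6.99% of all windows) and the glucocorticoid receptor letters (0.478%) were in none of the 16. The windows at Bcl6, Igfals and Igf1 are shown because they hold these letters next to open regions described below, and that of Ghr because it holds none. Capitals mark every match, and each sequence runs 5' to 3' along the gene. The first Bcl6 start, the second Igfals start and the Igf1 start lie inside the annotated gene spans.
Bcl6, chr16:23981234-23981533, minus strand: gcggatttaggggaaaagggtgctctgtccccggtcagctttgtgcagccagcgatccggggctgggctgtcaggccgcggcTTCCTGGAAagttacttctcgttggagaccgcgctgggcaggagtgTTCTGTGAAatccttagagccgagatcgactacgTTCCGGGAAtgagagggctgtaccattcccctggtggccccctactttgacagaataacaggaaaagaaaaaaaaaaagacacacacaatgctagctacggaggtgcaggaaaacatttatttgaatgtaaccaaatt
Igfals, chr17:24877594-24877893, plus strand: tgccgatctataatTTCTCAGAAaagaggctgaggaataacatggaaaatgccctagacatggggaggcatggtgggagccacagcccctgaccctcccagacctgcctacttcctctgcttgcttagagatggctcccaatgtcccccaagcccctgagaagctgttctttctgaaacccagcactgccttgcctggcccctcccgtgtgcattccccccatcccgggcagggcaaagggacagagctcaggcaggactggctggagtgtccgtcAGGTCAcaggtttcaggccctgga
Igfals, chr17:24877981-24878280, plus strand: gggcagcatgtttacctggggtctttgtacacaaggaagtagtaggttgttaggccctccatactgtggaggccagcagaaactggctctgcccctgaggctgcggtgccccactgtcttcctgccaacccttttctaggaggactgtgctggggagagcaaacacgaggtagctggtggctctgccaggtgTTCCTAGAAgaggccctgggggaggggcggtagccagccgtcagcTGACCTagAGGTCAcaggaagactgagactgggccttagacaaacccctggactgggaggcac
Igf1, chr10:87860861-87861160, plus strand: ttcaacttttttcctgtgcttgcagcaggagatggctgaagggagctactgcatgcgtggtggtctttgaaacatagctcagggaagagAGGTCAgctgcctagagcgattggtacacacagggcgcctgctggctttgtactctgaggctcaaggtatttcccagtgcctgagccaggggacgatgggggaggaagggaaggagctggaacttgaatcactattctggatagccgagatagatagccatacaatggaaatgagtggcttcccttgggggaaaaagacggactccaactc
Ghr, chr15:3583303-3583602, minus strand: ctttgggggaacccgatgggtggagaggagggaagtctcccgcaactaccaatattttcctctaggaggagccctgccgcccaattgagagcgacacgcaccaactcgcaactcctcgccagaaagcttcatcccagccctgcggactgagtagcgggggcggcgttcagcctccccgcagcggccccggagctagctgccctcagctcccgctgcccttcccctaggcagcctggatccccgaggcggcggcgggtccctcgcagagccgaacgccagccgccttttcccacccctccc
In the Bcl6 window the 3 STAT5 matches begin at -168, -122 and -88 from the start. In the Igfals windows the STAT5 match begins at -236 of the upstream start and at -58 of the next one, where the 2 hexamers at -13 and -5 are on opposite strands. The Igf1 hexamer begins at -161. A match is a string of letters and not a measured binding site.

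Each value below is a normalized tag count, the depth-scaled number of tags in a peak as the authors' files give it, and the highest one in the region was used for each library. Values are listed for libraries 1, 2 and 3 of a group. The step between the lowest values of a file ranged from 0.0479 to 0.0608 normalized tags. If a step is 1 tag, the lowest peaks held 56 to 59 tags and the median peak 209 to 251. Regions with a peak in all 6 libraries, called shared here, were compared on the log2(value + 1) scale, each library centred on its median, by limma with Benjamini-Hochberg adjustment over all 51749 shared regions and a threshold of 0.05. Log2 differences are dKO minus control on that scale, which understates changes of weak regions. Deposited peaks were 166 or 172 bp wide in control 2, control 3 and dKO 3, and narrower in control 1, dKO 1 and dKO 2. The narrow and the wider class were treated as a technical split, and differences within each are given where they matter. In a principal component analysis of shared regions, component 1 held 61.5% of the variance, and on it dKO 3 at 12.7 lay between dKO 1 at 63.5 or dKO 2 at 53.6 and the controls at -48.4 to -36.3. Of the marker genes of hepatocytes, 8 of 8 had regions, 85 in all. Endothelial markers had 73 regions at 8 of 8 genes and stellate cell markers 22 at 8 of 8. Cholangiocyte markers had 44 at 4 of 7, so regions at genes of other liver cell types were present. A peak at a marker shows that the region is open, not that the cells are of that type. Markers of T, NK and B cells had 4 regions at 2 of 8 genes, neutrophil markers 5 regions at 4 of 6 genes, and macrophage markers 12 regions at 5 of 8 genes.

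Of the 150 regions at the 10 genes, 51 (34.0%) were shared, against 47.1% of all regions. A further 34 (22.7%) had a peak in 1 library, against 16.6% of all. Regions with peaks in narrow-peak libraries alone made up 54 of the 150 (36.0%), against 23.1% of all. The genes differed in size and in number of regions. Ghr, whose span covers 265598 bp, had 43 regions and 10 shared ones. Igf1 had 26 and 8, Socs2 19 and 6, Igfbp2 16 and 8, Stat5b 15 and 8, and Bcl6 12 and 3. Igfbp1 had 6 and 2, Stat5a 5 and 2, Jak2 4 and 3, and Igfals 4 and 1.

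At these genes 6 shared regions were lower in dKO and 2 were higher. The lower ones were 3 inside Ghr, 2 inside Igf1 and 1 beside Socs2, and the higher ones lay upstream of Igf1 and of Bcl6. That is 11.8% lower and 3.92% higher. The background over all shared regions was 11.6% lower and 8.19% higher, so the share of lower calls was near it. The median log2 difference was -0.15 at the 51 regions and -0.02 over all shared regions, and 33 of the 51 differences were below 0. In 9 of the 51 regions every dKO value lay below every control value (15.8% of all shared regions), and in 3 every dKO value lay above (12.6%). The number of calls rested on single libraries. Without dKO 2 none of the 51 passed in either direction, with 9 lower and 2 higher at an unadjusted p under 0.05. Without dKO 1, 3 were lower, without control 2, 12, and without dKO 3, 14. Over all 51749 shared regions, lower calls were 1402 without dKO 2, 2061 without dKO 1, 4741 without control 2 and 8123 without dKO 3. Within the wider class, where dKO 3 is the only dKO library, no region of the series passed, with 3513 higher and 4003 lower at an unadjusted p under 0.05. Missing the threshold there says nothing about a single region, and the highest adjusted p given below for each of the 8 called regions comes from that class. The narrow class has control 1 as its only control. In both, the lone library is assumed to vary like the others.

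**Figure D1:**
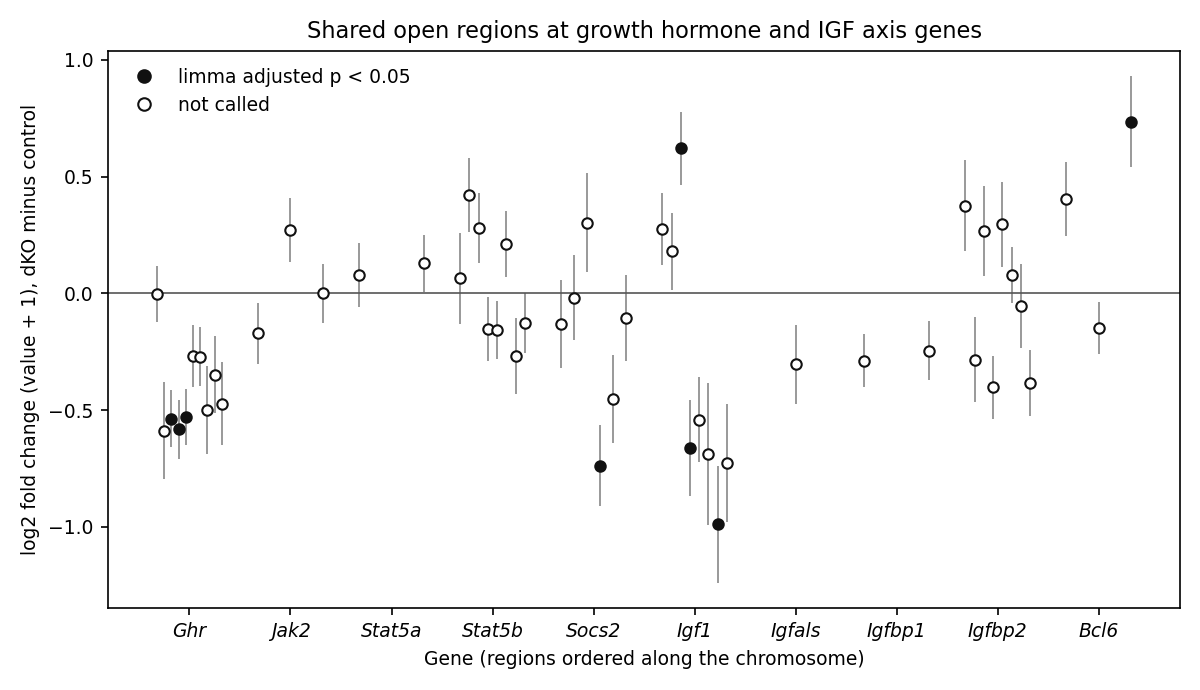
Log2 difference (dKO minus control, log2(value + 1) scale) of each of the 51 shared regions, grouped by gene and ordered along the chromosome; bars are the moderated SE of limma and filled points have an adjusted p under 0.05. The points inside Igf1 and 9 of the 10 of Ghr lie below 0 by more than their SE, while those of Stat5b and Igfbp2 lie on both sides.

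Ghr, the receptor, had the most regions, and lower values in dKO were seen at 3 of its 10 shared regions. All 3 lie inside the gene, at chr15:3464794-3465090, chr15:3485477-3485649 and chr15:3489308-3489482. Their midpoints are 116900, 96279 and 92447 bp into the gene from the nearer of the 2 annotated starts. Exons and introns were not analysed here. The first of these was the most open shared region of the gene, with 50.9, 60.7 and 64.2 normalized tags in control and 38.5, 30.5 and 47.5 in dKO. Its group means were 58.6 ± 6.89 and 38.8 ± 8.50 (SD, n = 3 each), and limma gave a log2 difference of -0.54 (SE 0.12, adjusted p = 0.00874). The second had 31.8, 34.4 and 32.2 in control and 21.3, 15.8 and 26.0 in dKO (log2 difference -0.58, SE 0.13, limma adjusted p = 0.00772). In both regions dKO 2 was the lowest library and dKO 3 the highest of its group, and the groups did not overlap. The third had 44.8, 44.7 and 44.5 in control, a spread of 0.153 (SD), and 28.4, 23.2 and 38.3 in dKO (log2 difference -0.53, SE 0.12, limma adjusted p = 0.00913). Here too the groups did not overlap. The 3 differences kept their sign within both width classes, at -0.43 to -0.65 in the narrow class and -0.31 to -0.48 in the wider class. Over the alternatives the adjusted p ranged from 0.00224 to 0.297 for these regions, and all 3 missed the threshold without dKO 2 (0.0657 to 0.0776).

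The start of Ghr did not pass the test. The region at chr15:3583377-3583565, inside the promoter window printed above, had 32.1, 37.4 and 40.3 in control and 26.9, 23.1 and 38.3 in dKO (log2 difference -0.27, SE 0.13, limma adjusted p = 0.167), and the groups overlapped through dKO 3. Of the other 6 shared regions of Ghr, 5 had log2 differences of -0.27 to -0.59 that did not pass. The last, near the far end of the gene at chr15:3323130-3323319, had 25.9, 23.6 and 24.7 in control and 24.4, 19.6 and 27.4 in dKO. Its log2 difference was -0.0038 (SE 0.12) and turned above 0 under quantile normalization (0.093). The 33 regions of Ghr without a peak in every library had 3.61 to 43.2 normalized tags, and 13 of them had a peak in 1 library. When regions with peaks in at least 3 libraries were tested, 3 more inside Ghr were lower. These were chr15:3341874-3342075, chr15:3455612-3455825 and chr15:3490977-3491151, with log2 differences of -1.07, -0.84 and -0.51 (limma adjusted p = 0.0112, 0.0348 and 0.0387) and no peak in control 3 for any of them. In that fit 14 of 94 regions at the 10 genes were lower and 2 higher, against 8.48% and 5.72% of all 76393 regions tested.

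**Figure D2:**
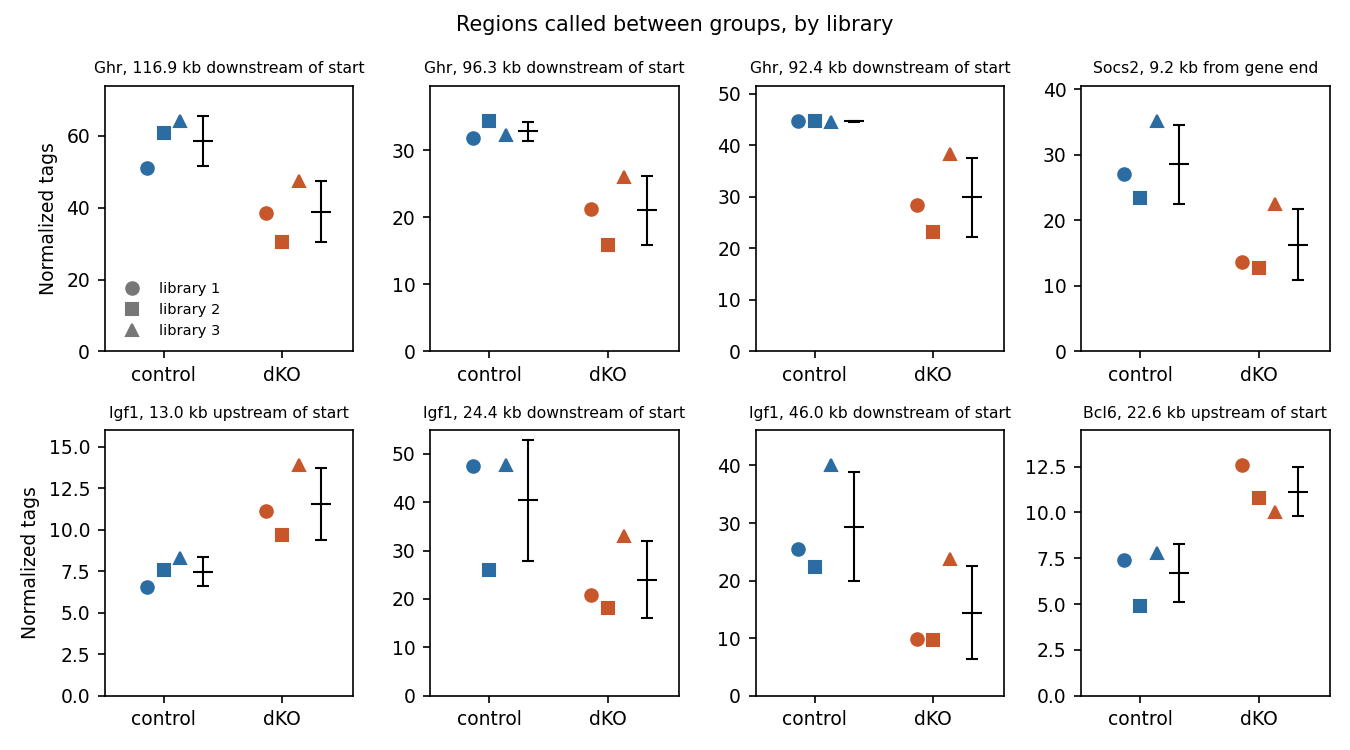
Normalized tags in each library at the 8 shared regions that passed the test, with the mean and SD of each group (n = 3) beside the points; the point shape gives the library number. The groups overlap at 2 of the 8 panels, both inside Igf1, where control 2 at 26.0 and 22.4 lies below dKO 3 at 33.1 and 23.8.

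Jak2, the kinase docked on the receptor, had 3 shared regions and none passed (0 at an unadjusted p under 0.05). Its strongest region, at chr19:29251599-29251794 and 107 bp before the annotated start, had 67.8, 62.8 and 64.1 in control and 47.0, 47.0 and 75.5 in dKO. The dKO libraries lay on both sides of the controls. The log2 difference of -0.17 (SE 0.13, limma adjusted p = 0.371) was -0.39 within the narrow class and 0.15 within the wider class. The region at chr19:29285318-29285668, inside the gene, stayed between 3.61 and 4.74 in the 6 libraries.

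Stat5a and Stat5b encode the STAT proteins that JAK2 activates, and their spans lie side by side on chromosome 11. None of their 10 shared regions passed the test, and 1 had an unadjusted p under 0.05. At the Stat5a start, chr11:100860240-100860510, values were 30.3, 28.3 and 27.5 in control and 30.3, 23.9 and 37.6 in dKO (log2 difference 0.13, SE 0.12, limma adjusted p = 0.479). At the strongest Stat5b region, chr11:100850531-100850703, they were 51.6, 43.6 and 41.8 in control and 39.6, 30.6 and 51.9 in dKO (-0.13, SE 0.13, limma adjusted p = 0.518). In both, dKO 3 was the highest library of all 6 and dKO 2 the lowest. At the other Stat5b start, chr11:100822476-100822696, values were 17.2 to 18.2 in control and 13.1 to 17.4 in dKO. Inside Stat5b, 1 region at chr11:100810676-100810921 had non-overlapping groups, with 11.5, 11.1 and 9.81 in control and 14.6, 13.8 and 14.0 in dKO, but its log2 difference of 0.42 (SE 0.16) did not pass (limma adjusted p = 0.0748). A region inside Stat5b, chr11:100816949-100817153, had a peak in the 3 control libraries (10.4, 15.9 and 14.4) and in no dKO library. It was the only control-only region at the 10 genes, and 1.34% of all regions were of this kind. The nearest dKO peak was 2122 bp away. A site without a peak is not shown to be closed, since the lists require a fold of at least 4 over the local surroundings.

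Socs2, the feedback inhibitor, had lower values in dKO at 1 of its 6 shared regions. No annotated start was at hand for Socs2, so a gene end here means the nearer edge of its span, whichever edge holds the start. The region called lower, chr10:95426375-95426601, lies outside the gene, 9167 bp from the gene end. It had 27.0, 23.4 and 35.2 in control and 13.6, 12.7 and 22.5 in dKO, and the groups did not overlap. The means were 28.5 ± 6.05 and 16.3 ± 5.42 (SD, n = 3 each), with a log2 difference of -0.74 (SE 0.17, limma adjusted p = 0.0108). The difference was -0.85 within the narrow class and -0.44 within the wider class. It missed the threshold without dKO 1 (adjusted p = 0.0640) and without dKO 2 (0.0697), and its adjusted p ranged from 0.000392 to 0.391 over the alternatives. The next shared region out, chr10:95430340-95430739, had 22.9, 16.8 and 31.8 in control and 14.5, 14.0 and 19.7 in dKO, and did not pass (-0.45, SE 0.19, limma adjusted p = 0.106). Between them, chr10:95429720-95429830 had peaks in 3 libraries, at 16.3 in control 1, 16.1 in dKO 1 and 13.4 in dKO 2.

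The strongest shared region of Socs2, chr10:95438938-95439122, had 38.6, 22.0 and 35.9 in control and 28.9, 28.3 and 26.1 in dKO. The dKO libraries lay between control 2 and the other controls, and the log2 difference was -0.11 (SE 0.19, limma adjusted p = 0.720). Around the gene end at chr10:95417321, peaks were placed differently in different libraries. A region at chr10:95417015-95417197 had a peak in the 3 dKO libraries (23.6, 25.4 and 41.1) and in no control library, which 1.57% of all regions did. A control 3 peak of 38.7 lies 25 bp away, in the region chr10:95416630-95416990, where control values were 35.0, 21.6 and 38.7. The region nearest to the gene end, chr10:95417310-95417439, had peaks at 26.8 in control 1, 25.1 in dKO 1 and 29.0 in dKO 2. When peaks up to 200 bp apart were joined, an alternative chosen after seeing the data, no dKO-only region was left at the 10 genes.

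Igf1, the growth factor itself, had 8 shared regions that split by position. The 5 inside the gene had log2 differences of -0.54 to -0.99, and 2 of them were lower by the test. The 3 upstream of the gene had differences of 0.18 to 0.62, and 1 of them was higher. The lower region with the largest difference, at chr10:87906952-87907196, lies 45963 bp into the gene from the annotated start. It had 25.5, 22.4 and 40.1 in control and 9.85, 9.67 and 23.8 in dKO. Its means were 29.3 ± 9.45 and 14.4 ± 8.11 (SD, n = 3 each), and limma gave -0.99 (SE 0.25, adjusted p = 0.0148). The other, at chr10:87885399-87885587 and 24382 bp into the gene, had 47.4, 26.0 and 47.7 in control and 20.8, 18.1 and 33.1 in dKO (-0.66, SE 0.21, limma adjusted p = 0.0372). In both regions dKO 3 lay above control 2, so the groups overlapped.

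The most open region of Igf1, chr10:87901984-87902188, varied most among controls. Control values were 58.2, 22.4 and 62.0 and dKO values 19.9, 19.7 and 41.4, a log2 difference of -0.69 (SE 0.30) that did not pass (limma adjusted p = 0.124). Control 2 and dKO 3 lay on the far side of their groups. The remaining inner regions, chr10:87894518-87894815 and chr10:87927048-87927272, had differences of -0.54 and -0.73 (limma adjusted p = 0.0520 and 0.0583). Without control 2 all 5 inner regions passed as lower. The size of these differences varied with the width class. Within the narrow class they were -0.66 to -1.38, and within the wider class -0.42 to 0.046, where the most open region had the opposite sign. The call at chr10:87885399-87885587 was lost in 8 of 19 alternatives and that at chr10:87906952-87907196 in 4 of 19, the wider class included in both, with adjusted p up to 0.791 and 0.521.

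The higher Igf1 region lies upstream at chr10:87847965-87848167, at -13045 bp from the annotated start. It was weakly open, with 6.55, 7.56 and 8.30 in control and 11.1, 9.67 and 13.9 in dKO, and the groups did not overlap. The means were 7.47 ± 0.879 and 11.6 ± 2.15 (SD, n = 3 each), with a log2 difference of 0.62 (SE 0.16, limma adjusted p = 0.0152). The difference was 0.72 within the narrow class and 0.64 within the wider class. The call was lost without centring (adjusted p = 0.0534) and without dKO 2 (0.0658), and its adjusted p ranged from 0.00488 to 0.220 over the alternatives. The region nearest to the annotated start, chr10:87860947-87861055 in the promoter window shown, had a peak only in dKO 1 (15.7). That start lies inside the gene span, which begins at chr10:87858265. Outside the span by 470 bp, chr10:87857699-87857892 had 29.1 and 23.9 in control 1 and control 2. It had 15.4, 13.7 and 23.6 in dKO and no peak in control 3. From 1 to 5 libraries had peaks in the 18 Igf1 regions that were not shared. Of those, 4 were lower when regions in at least 3 libraries were tested, with log2 differences of -0.60 to -1.05. At chr10:87885819-87886020 (-1.05), control 1 was the only control library with a peak. At chr10:87897480-87897680 (-1.04), dKO 1 was the only dKO library with a peak. The smallest difference was at chr10:87857699-87857892 (-0.60, limma adjusted p = 0.04999). It lies upstream of the gene, so the split by position held for shared regions alone.

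**Figure D3:**
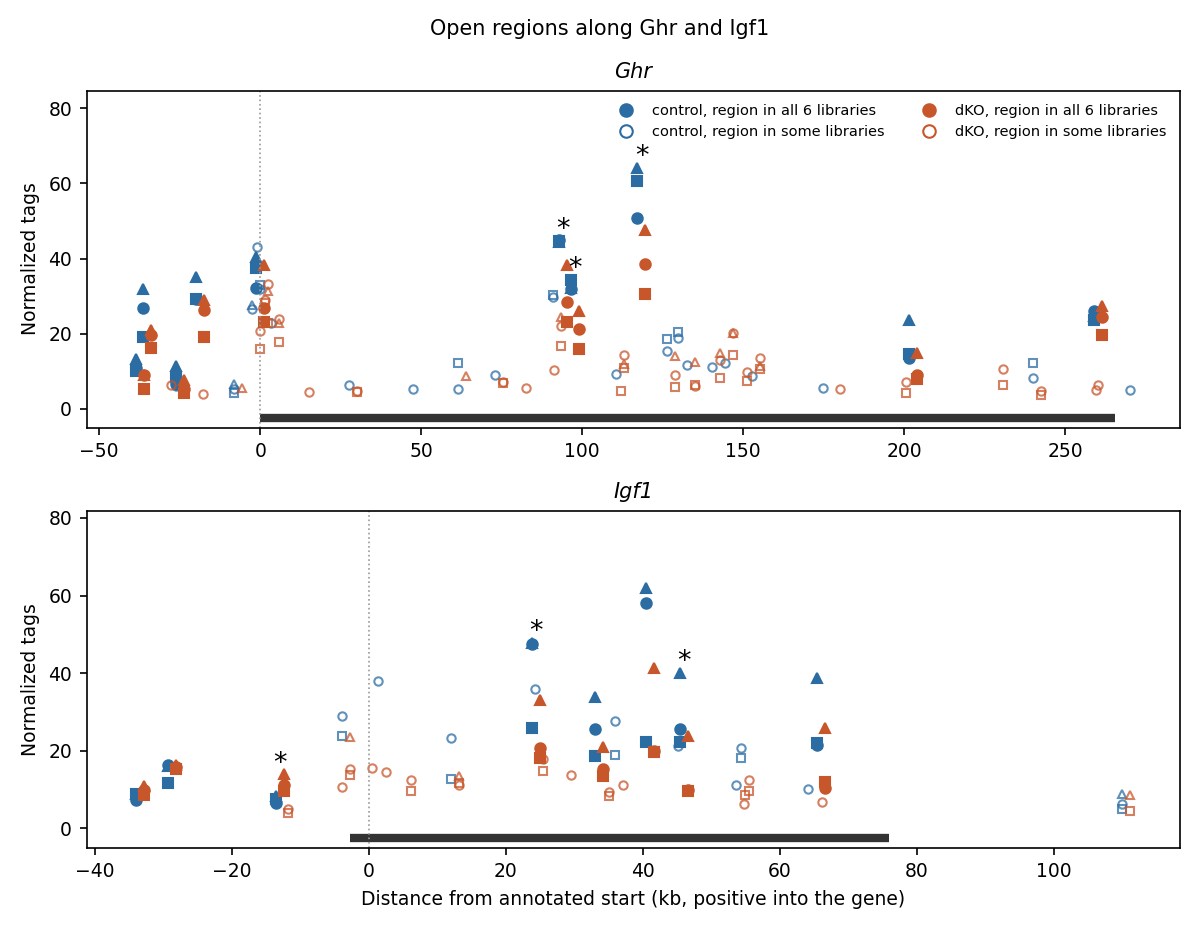
Normalized tags of every region at Ghr and Igf1 against distance from an annotated start (kb, positive into the gene; for Ghr the outer start), with the gene span as a bar; filled points are shared regions, open points regions with peaks in some libraries, shapes give the library number and asterisks the regions that passed the test. Control and dKO points are set slightly apart; at Ghr the 3 asterisks sit deep inside the gene, and at Igf1 the values inside the gene reach 62.0 while the region marked upstream stays at or below 13.9.

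Igfals, the carrier subunit that stabilises circulating IGF1, had 1 shared region, at chr17:24877406-24877645 and 319 bp before the upstream start. It had 63.9, 44.0 and 66.9 in control and 38.0, 36.1 and 63.2 in dKO. The groups overlapped, with dKO 3 next to control 1, and the region did not pass (log2 difference -0.30, SE 0.17, limma adjusted p = 0.219). The difference was -0.64 in the narrow class and 0.12 in the wider class. The region nearest to the upstream start, chr17:24877801-24877910, had peaks in dKO 1 (26.8) and dKO 2 (25.8) alone. The region chr17:24878043-24878233, which overlaps the second Igfals window printed above, had peaks in 4 libraries, at 42.5 in control 1, 45.1 in control 3, 25.9 in dKO 1 and 23.9 in dKO 2. It was lower when regions in at least 3 libraries were tested (log2 difference -0.71, limma adjusted p = 0.0141). The region chr17:24878606-24878778, 55 bp before another annotated start, did not pass in that fit (-0.029, limma adjusted p = 0.933). It had 57.1 and 37.9 in control 1 and control 2, no peak in control 3, and 48.2, 39.1 and 50.6 in dKO.

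Igfbp1 and Igfbp2, binding proteins of IGF1, had 10 shared regions and none passed, with 3 lower at an unadjusted p under 0.05. The strongest of Igfbp1, at -4844 bp and chr11:7192857-7193029, had 48.8, 51.4 and 41.9 in control and 37.9, 32.4 and 40.6 in dKO. The groups did not overlap, but the log2 difference of -0.29 (SE 0.11) did not pass (limma adjusted p = 0.0882). The Igfbp1 start, chr11:7197619-7197793, had 51.0, 52.7 and 46.3 in control and 34.3 and 48.5 in dKO 2 and dKO 3, with no peak in dKO 1. The strongest of Igfbp2, at chr1:72809296-72809588 and -15038 bp, had 56.4, 51.8 and 39.4 in control and 33.9, 32.1 and 39.5 in dKO (-0.40, SE 0.13, limma adjusted p = 0.05004). Control 3 was as low as dKO 3, so the groups overlapped. At the Igfbp2 start, chr1:72824506-72824729, control values of 25.9, 31.3 and 26.2 and dKO values of 27.7, 25.0 and 31.8 had a log2 difference of 0.08 (SE 0.12, limma adjusted p = 0.684). The 8 shared Igfbp2 regions ran from -0.40 to 0.38, 4 above 0 and 4 below.

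Bcl6, the repressor, had a higher value in dKO at 1 of its 3 shared regions. It lies upstream of the gene, at chr16:24011392-24011581 and -22634 bp. Values were 7.40, 4.88 and 7.79 in control and 12.6, 10.8 and 10 in dKO, without overlap. The means were 6.69 ± 1.58 and 11.1 ± 1.33 (SD, n = 3 each), with a log2 difference of 0.74 (SE 0.19, limma adjusted p = 0.0185). The difference was 0.72 and 0.52 within the narrow and wider classes. The call was lost in 5 of 17 alternatives, the wider class included, among them the fits without control 2 (adjusted p = 0.0708), dKO 1 (0.0837) and dKO 2 (0.101), and its adjusted p ranged from 0.00421 to 0.389. The strongest shared region, inside the gene at chr16:23972157-23972397, had 34.0, 31.2 and 35.2 in control and 30.0, 25.5 and 31.1 in dKO. It did not pass (-0.15, SE 0.11, limma adjusted p = 0.371).

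The inner Bcl6 start, whose window holds 3 STAT5 matches, was covered by peaks that did not line up between libraries. The region chr16:23981324-23981496 had a peak in control 3 alone, at 88.4, the highest value of any of the 150 regions. The neighbouring region chr16:23981064-23981172 had 39.3 in control 1, 37.8 in dKO 1 and 42.4 in dKO 2. No region at this start was shared. When regions in at least 3 libraries were tested, the neighbouring region, with 1 control value, did not pass (log2 difference 0.07, limma adjusted p = 0.862).

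The libraries of 1 group differed more at some of these genes than at others. The median SD of the 3 control libraries on the centred log2 scale was 0.41 at Igf1, 0.38 at Socs2, 0.34 at Igfbp2 and 0.32 at the 1 Igfals region, against 0.16 over all shared regions. At Ghr it was 0.16 and at Stat5b 0.13. Control 2 was the lowest control in 6 of 6 Socs2 regions and 5 of 8 Igf1 regions. Control 3 was the lowest in 6 of 8 Igfbp2 regions and 6 of 8 Stat5b regions. Over all shared regions the lowest control was control 1 in 18364, control 2 in 14783 and control 3 in 18602.

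**Figure D4:**
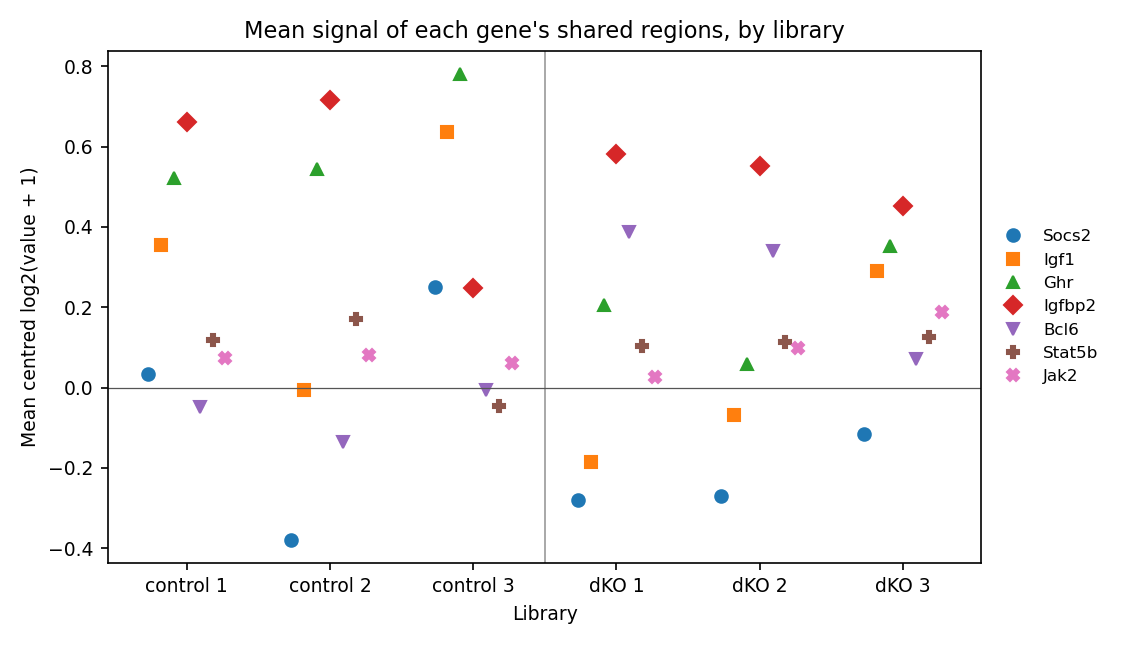
Mean centred log2(value + 1) over the shared regions of each gene with at least 3, in the 6 libraries; each marker is 1 gene. Socs2 and Igf1 are lowest among controls in control 2 (-0.38 and -0.0047), while Igfbp2 is lowest there in control 3 (0.25).

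The mean profile of each gene over the 6 libraries was set beside that of the 6148 genes with at least 3 shared regions, as a description over 6 points that share libraries and groups. The profile of Igf1 was like that of Socs2 (Pearson r = 0.93), and Ghr was less like either (0.80 with Igf1 and 0.67 with Socs2). Bcl6 ran opposite to Ghr (-0.82). The 3 genes most like Igf1 were Cdkl1, Il6st and Rnf144b (0.99 each). For Socs2 they were Shisal2a (0.99), Rgs2 (0.98) and Selenbp2 (0.98), for Ghr they were Lmo3, Heatr1 and Aoc1 (0.99 each), and for Bcl6 they were Npffr2 (0.998), Krr1 (0.99) and Hivep2 (0.99). At least 26 genes reached 0.95 with each of these 4.

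Other genes of the pathway were called in both directions, the lower ones at a share near that of all regions. The list held 27 genes, from IGF and insulin receptors to further SOCS and STAT members. Their 119 shared regions had 14 higher and 14 lower calls (11.8% each, against 8.19% higher and 11.6% lower over all shared regions), with a median log2 difference of -0.10. Without dKO 2 the counts were 4 and 2, and without dKO 1 they were 6 and 7. Higher regions were most frequent at Prlr, the prolactin receptor and a close relative of the growth hormone receptor, with 6 of 12. Its region chr15:10183625-10183831 had 13.4, 8.90 and 8.52 in control and 19.8, 18.1 and 18.7 in dKO (log2 difference 0.90, SE 0.18, limma adjusted p = 0.00550). At Igf2r, which clears IGF2, 2 of 9 were higher. The largest of the higher calls lay 38360 bp from Irs2, an adaptor of the insulin and IGF1 receptors, with 16.5, 16.8 and 17.5 in control and 39.6, 32.7 and 32.6 in dKO (log2 difference 1.06, SE 0.14, limma adjusted p = 0.000752). The groups did not overlap at either region. Of 10 shared Irs2 regions, 2 were higher and 1 was lower. The lower one, chr8:11009761-11009971, lay 937 bp from the gene. It had 60.1, 68.6 and 61.7 in control and 35.6, 33.1 and 51.1 in dKO (-0.62, SE 0.12, limma adjusted p = 0.00455). Lower calls also included 1 each at Socs3, Igfbp4 and Igfbp5. Cish, a STAT5 target like Socs2, had 1 shared region that did not pass (-0.22).

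Liver genes whose level depends on the pulsed male or the steadier female pattern of growth hormone were counted from 2 further lists of 14 genes each. Of 43 shared regions at male-biased genes, 18 (41.9%, against 11.6% of all shared regions) were lower in dKO and none was higher (0 at an unadjusted p under 0.05), with a median log2 difference of -0.42. They were 3 of 3 at Cyp2d9, 5 of 5 at Nudt7, 4 of 7 at Mup20 and 2 of 2 at Mup21, and 1 each at Mup3, Hsd3b5, Cyp2u1 and Selenbp2. At Cyp2d9, a cytochrome P450, the region chr15:82452263-82452454 had 46.6, 45.3 and 36.3 in control and 11.0, 11.2 and 22.2 in dKO (-1.47, SE 0.18, limma adjusted p = 0.000751). The groups were far apart there, with dKO 3 nearest to the controls. The Mup and Cyp2d genes have near-identical copies, so their values are uncertain. Without dKO 2 the count was 8, and within the wider class it was 0 (13 unadjusted) with a median of -0.33. Hepatocyte markers outside the axis moved the same way, with 16 of 36 shared regions lower (44.4%), none higher (0 unadjusted) and a median of -0.44. Without dKO 2 that count was also 8. The part of that shift in the male-biased list was not tested.

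The 38 shared regions of female-biased genes had 5 higher (13.2%) and 6 lower (15.8%) calls, against 8.19% and 11.6% of all shared regions, with a median of -0.05, and 3 of each without dKO 2. Without dKO 1 there were 3 and 2. Higher regions were at Cyp2a4, Cux2, Cyp17a1 and Cyp2b13. The Cyp2a4 region chr7:26315922-26316125 had 11.0, 12.3 and 7.57 in control and 33.6, 23.7 and 27.6 in dKO (log2 difference 1.45, SE 0.18, limma adjusted p = 0.000752). Of the lower calls, 1 was near Hao2. Cyp2a4 and Cyp2b13 also have close copies, so their values are uncertain.

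**Figure D5:**
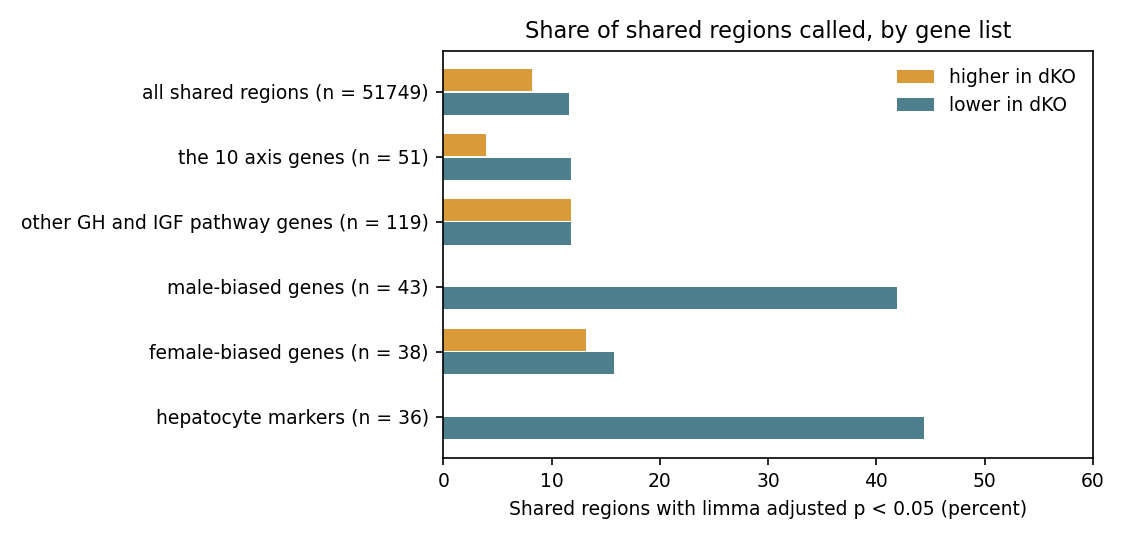
Percent of shared regions with an adjusted p under 0.05 in limma, higher (upper bar) or lower (lower bar) in dKO, for all shared regions and for each gene list, with the number of shared regions in brackets. The bars of the 10 axis genes (3.92% and 11.8%) lie near or below those of all regions, and the male-biased genes and hepatocyte markers have lower calls alone (41.9% and 44.4%).

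Peaks per library at the 10 genes numbered 112, 76 and 66 in control and 122, 105 and 76 in dKO. The means were 84.7 ± 24.2 and 101 ± 23.3 (SD, n = 3 each), and the difference of 16.3 was smaller than the spread between libraries (exact permutation test, 2-sided, p = 0.5, where 3 against 3 libraries cannot go below 0.1). The 3 libraries with narrow peaks held the 3 highest counts.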

How the data were processed

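ATAC-seq was measured in 6 libraries, 3 control and 3 dKO, grouped by their labels. Per the submitters' processing notes, the build was mm10 and the tools included HOMER 4.11, Trim Galore 0.6.4, SAMtools 1.10 and Picard. For their roles and options, the aligner, duplicate handling, any shift of cut sites and the scaling depth, details were not given in the sources used here. A list per library was deposited, so peaks were not called on pooled samples. The lists give a normalized tag count, which is a depth-scaled signal, per the file headers. The other deposited columns are a peak score, a p-value, a local and a clonal fold (ratios), and a focus ratio, which is a fraction. Scores served as a filter on peaks alone. Each deposited list had a lowest score of 35.5 and a lowest local fold of 4.

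Peaks on chromosomes 1 to 19 and X that shared at least 1 bp were merged. Gene spans and promoter windows came from RefSeq tables of GRCm38.p6. Shared regions were fitted with limma 3.58.1 (R 4.3.3) with a mean-variance trend, group as the only term, and 2-sided p-values. A pseudocount of 1 was added before taking log2. The whole counts behind larger values could not be recovered, so no count model was used. The fit was tested on simulated data. The members and the gene lists were chosen with earlier results of these data known. Described in full were regions that passed the test, the strongest shared region and the region nearest to a start or gene end for each gene, and regions with peaks in 1 group only, while other regions with values were chosen after their values were seen. Alternatives covered scaling, pseudocount, filters, merging, links, width class, replicate number and single libraries. Single results at some listed genes are not reported here.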

Additional observations from a re-analysis of the deposited data

How the results depend on the processing

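Of the 8 regions that passed at the 10 genes, none changed direction under any alternative, and all 8 missed the threshold without dKO 2. Each width class has an arm of 1 library, and no region of the series passed within the wider class, so missing it there says nothing about these 8. Over all shared regions, 4240 were higher and 5995 lower. Higher calls fell to 2562 without centring, 1963 at a mean of at least 20 normalized tags, and 0 within the wider class (3513 at an unadjusted p under 0.05). Lower calls were 1953 at that mean, 3884 with the upper 75% of peaks by score, and 0 within the wider class (4003 unadjusted). Without each library in turn they ranged from 1257 to 5174 higher and from 1402 to 8123 lower. Lower calls made up 58.6% of all calls, 50.6% under quantile normalization, 64.5% without centring, 49.9% at the higher mean and 49.4% with the stricter score.

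At the 10 genes, higher calls were 1 without centring, 0 at the higher mean (2 unadjusted) and 0 to 4 without single libraries. They were 0 with links within 10 kb, as both regions called higher lie farther out. Lower calls were 14 with regions in at least 3 libraries, 13 within the narrow class, 0 within the wider class (4 unadjusted) and 0 to 14 without single libraries. The 14 lower calls with regions in at least 3 libraries were among 94 regions, against 8.48% of all 76393 regions tested. Without single libraries, lower calls over all shared regions also varied, from 1402 to 8123. Counts within a width class rest on an arm of 1 library and are not listed for these genes. The median log2 difference at the 51 regions was -0.23 within the narrow class, against -0.034 over all shared regions. Within the wider class these were -0.026 and 0.0085. The cause of these changes in count was not tested. Regions confined to control were 2 (Bcl6 and Stat5b) with the stricter score, and those confined to dKO were 0 with peaks up to 200 bp apart joined. The difference in peaks per library was 5.83 to 30.0 without single libraries and 10 with the stricter score.

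With the replicate block, 14 regions at the 10 genes were lower and 3 higher, and 7384 and 5417 in all. Same-numbered libraries had deviations correlated at 0.15, -0.032 and 0.23, and not every library correlated best with its own number. Control 1 and dKO 1 both had narrow peaks, and control 3 and dKO 3 both had wider ones. These values therefore cannot show whether the numbers pair the libraries.

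Signs changed only at regions that did not pass. At the Ghr region chr15:3323130-3323319 the difference became 0.093 under quantile normalization, 0.14 at the higher mean, 0.062 with the stricter score, 0.0019 with peaks joined and 0.078 within the wider class, and ran from -0.034 to 0.034 without single libraries. The difference at the Jak2 start became 0.0023 under quantile normalization and 0.15 within the wider class. At the Stat5b region chr11:100850531-100850703 it became 0.051 under quantile normalization, 0.016 at the higher mean and 0.18 within the wider class. At the Socs2 region chr10:95438938-95439122 it became 0.038 under quantile normalization and 0.037 at the higher mean, and ran from -0.35 to 0.047 without single libraries, above 0 without control 1 and, at 0.018, without dKO 3. Within the wider class, Igf1 at chr10:87901984-87902188 became 0.046 and Igfals 0.12. Within the narrow class, the Stat5a start became -0.033 and Socs2 at chr10:95408585-95408813 became -0.048.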

Other observations

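Of the 150 regions, 9 (6.0%) had peaks in control 1 and all 3 dKO libraries alone, against 1.88% of all regions. Most of these lay inside Ghr, and the others at Bcl6, Igfbp2 and Stat5b. A further 13 (8.67%) had a peak in dKO 1 and dKO 2 alone, against 4.29% of all, and 16 (10.7%) in dKO 1 alone, against 5.17%. The opposite arrangement, the 3 controls with dKO 3 alone, was found in 2 regions (1.33%), against 1.59% of all. Regions with a peak in control 1 alone numbered 10 (6.67%), against 4.75%. Control 1, dKO 1 and dKO 2 are the libraries with the narrow peaks, and the part of peak width in these patterns was not tested.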
